A study of Mus musculus with 12 samples.

Results

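Nrf2 sites shared by 2 forms of the protein were taken from ChIP-seq peak lists of mouse peritoneal macrophages. The shared sites are the regions where at least 2 of 3 libraries of wild-type (WT) cells and at least 2 of 3 libraries of Nrf2 AY/AY (AY) cells held a peak. There were 395 such regions among the 4147 regions (9.52%) formed by merging all 8644 peaks that overlapped by at least 1 bp. The number was 202 with peaks of a score of at least 100 and 235 with every list cut to its 826 highest scores. In WT cells the Nrf2 gene was unaltered, whereas both copies were the Nrf2 AY allele in AY cells. Macrophages were drawn into the peritoneum of mice aged 7 to 8 weeks by 4% thioglycolate broth and collected 4 days later. Cells of both genotypes were exposed to 100 µM diethyl maleate for 4 hours, so no unstressed group stands beside them. Chromatin was fixed with 1% formaldehyde for 10 min and precipitated with an anti-Nrf2 antibody, 3 libraries for each genotype. The sources used here give neither the mouse strain nor the sex, and do not say whether the libraries came from separate animals. Gene expression was not measured, so the macrophage label could not be checked against marker genes, and the 6 input libraries of the series were not analysed here.

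Nrf2 is the transcription factor of the response to electrophilic and oxidative stress. In resting cells its partner Keap1 hands it to degradation; electrophiles such as diethyl maleate modify Keap1, and Nrf2 then accumulates in the nucleus, where it pairs with a small Maf protein on antioxidant response elements near genes for glutathione synthesis, detoxification, heme breakdown and NADPH supply. The AY allele is known to put tyrosine in place of an alanine in the basic region of Nrf2, the part that contacts DNA; Maf proteins carry a tyrosine there. Regions are given by mm9 position, counting from 1. The sequences under the peaks and the genes near them were not analysed here, because the annotation at hand is on another build.

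A peak list gives each peak a start, an end and a score from the authors' peak caller, and no read counts, so the depth behind every list is unknown. Scores grow with depth and were compared within a list only. The 6 lists held 826 to 2154 peaks, and the shortest list of each genotype, WT replicate 2 and AY replicate 3, missed the most shared regions.

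All 6 libraries held a peak at 202 of the 395 regions (51.1%), and 193 lacked a peak in 1 or 2 libraries. Of these, 74 were held by 3 WT and 2 AY libraries, 69 by 2 WT and 3 AY libraries, and 50 by 2 of each. In the first class the absent peak was that of AY replicate 3 at 59 of 74 regions. In the second class WT replicate 2 lacked the peak at 44 of 69 regions and WT replicate 3 at 22. WT replicate 1 held 389 of the 395 regions and AY replicate 1 held 387, against 314 in WT replicate 2 and 293 in AY replicate 3. The rule thus required a peak in lists of unequal length, and a missing peak does not show that the protein was absent from a site.

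The shared regions made up most of the top of every list. Of the 10 highest-scoring peaks, between 7 (WT replicate 3) and 10 (WT replicate 1) lay in a shared region. Of the 100 highest, the number was 79, 76 and 67 in the WT lists (replicates 1, 2 and 3, in this order throughout) and 78, 76 and 70 in the AY lists. Among the 100 lowest-scoring peaks the number was 1, 16 and 10 in the WT lists and 4, 7 and 8 in the AY lists. Over the whole list the share was 24.3%, 38.3% and 24.2% for the WT libraries and 18.0%, 26.6% and 27.4% for the AY libraries. Since a stronger peak is called in more libraries, membership and score are tied through the rule, and these shares are a description.

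**Figure D1:**
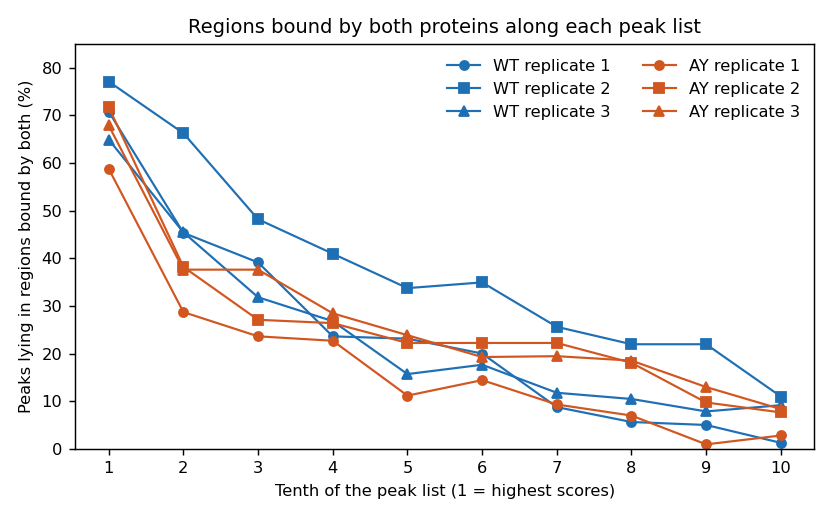
Share of peaks (%, vertical axis) that lay in regions bound by both proteins, for 10 equal parts of a library's list ordered by score (horizontal axis, 1 = highest scores); blue lines are WT and orange lines AY libraries, with 1 symbol per replicate. The share was 58.8% to 77.1% in the highest-scoring part and 1.25% to 10.98% in the lowest.

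Within the shared set, regions held by all 6 libraries had higher scores than regions held by 2 of each genotype. Regions in all 6 libraries had a median list rank, as a percent of the list length, of 11.1%, 21.2% and 14.02% in the WT lists and of 11.6%, 15.6% and 25% in the AY lists. The 50 regions just inside the rule, with 2 libraries of each genotype, had medians of 44.6%, 71.1% and 46.9% in the WT lists and 52.7%, 65.0% and 63.7% in the AY lists. The 114 regions just outside it, with 2 libraries of 1 genotype and 1 of the other, had 52.6%, 76.9% and 56.1% in the WT lists and 63.4%, 60.03% and 50.6% in the AY lists. Each median covers only the regions with a peak in that list. Of the 50 regions just inside, 37 had no WT replicate 2 peak and 43 had no AY replicate 3 peak. Where they had a peak, the regions on either side of the rule had medians in a similar stretch of the lists. Just inside, the best placed were chr6:82665898-82666722, chrX:103343473-103344251, chr15:6009683-6010436 and chr12:96984944-96986027, and each of these 4 lacked a peak in WT replicate 2 and in AY replicate 3. Just outside, the best placed was chrX:123301629-123306869, a region of 5241 bp that ranked 1 in the list of WT replicate 3, 5 in that of AY replicate 3 and 111 in that of WT replicate 2. The next were on unplaced sequence (Un_random, 3643478 to 3647911), at chrX:123309070-123310785 and at chr19:37602891-37603640.

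To compare the order of the sites, the 395 regions were ranked by their best score within each library, from 1 for the highest. Regions without a peak in a library shared the mean of its last ranks, which was 355 in WT replicate 2, for example, and 344.5 in AY replicate 3. The order was similar among libraries of 1 genotype and differed between genotypes. Spearman's rho over the 395 regions was 0.717 to 0.812 for the 3 pairs of WT libraries, 0.783 to 0.845 for the 3 pairs of AY libraries and 0.129 to 0.318 for the 9 mixed pairs. The points of each rho share their 2 libraries, and regions are not independent replicates, so no test was made. Of the 50 best-ranked regions, 2 WT libraries had 36 to 41 in common and 2 AY libraries 37 to 41, whereas a WT and an AY library had 15 to 19.

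The spread within a genotype shows how far a single rank varied. A span of 3 single ranks is larger than the error of a mean of 3, so it is not the error of the differences given here. The 3 WT ranks of a region spanned a median of 71.5 ranks and the 3 AY ranks 65 ranks, while the WT and AY means differed by a median of 81.8 ranks. For the 202 regions in all 6 libraries the spans were 55 and 54.5 ranks and the difference 69.2 ranks. The difference between the means exceeded 100 ranks at 174 regions, 89 of them higher in AY and 85 higher in WT, and 200 ranks at 49 regions, 28 and 21. The differences thus went both ways in like numbers. Ranks of 1 set make the signed differences balance in sum, which does not fix these counts.

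At 99 regions all 3 AY ranks were better than all 3 WT ranks, and at 115 regions the reverse held. These are 25.1% and 29.1% of the shared set. Over all 4147 regions, ranked in the same way, the shares were 12.8% and 16.0% (531 and 663 regions). Of the 663 regions higher in WT there, 253 lacked a peak in at least 1 WT library and were separated only because the shared last rank of a short list is a better number than that of a longer one. The share was 9.89% (410 regions) with a peak in all 3 WT libraries required, a requirement added after seeing the data, and stayed at 12.8% for AY. The 531 and 410 regions include 389 and 216 with no peak of the other genotype, which cannot occur in the shared set, so the shares of the whole are not a measure of chance. At 181 shared regions the ranks overlapped. All 99 and all 115 separated shared regions had a peak in all 3 libraries of the genotype they were higher in. This follows largely from the ranking. An absent WT peak ranked 355 or more, and no AY replicate 3 rank exceeded 344.5. A region lacking a WT peak thus could not be higher in WT. Toward AY, a region with an absent AY peak could be separated only if that peak was the AY replicate 3 peak. The same limits applied to the 50 regions with 2 libraries of each genotype. By class, 54 of the 202 regions in all 6 libraries were higher in AY and 73 higher in WT, 45 of the 69 regions with 2 WT libraries were higher in AY, 42 of the 74 regions with 2 AY libraries were higher in WT, and none of the 50 with 2 of each was separated. With 3 libraries against 3, no single region can reach a two-sided p under 0.1, so regions were counted and not tested. The counts were 57 and 65 when the 202 regions in all 6 libraries were ranked by themselves, and 61 and 75 with lists of equal length.

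**Figure D2:**
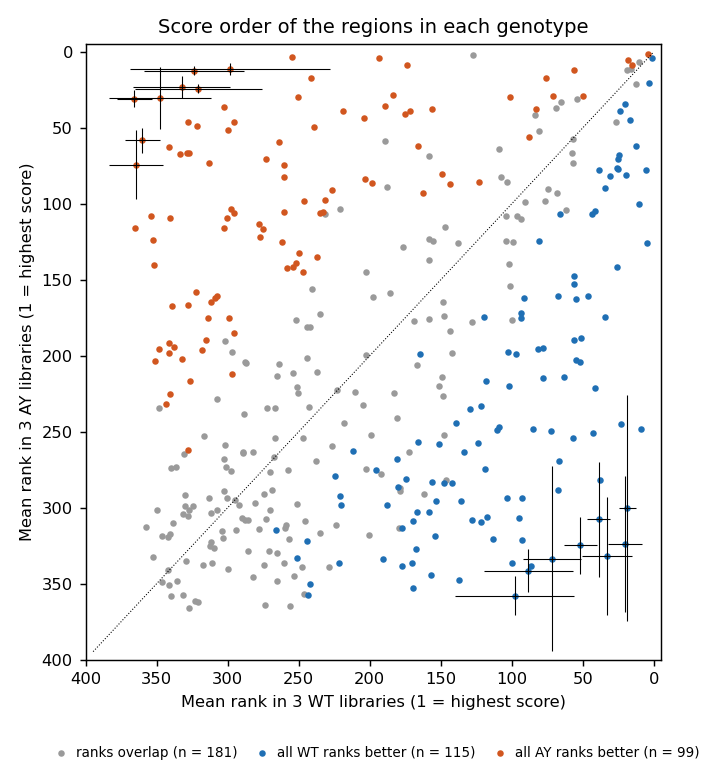
Mean rank in the 3 WT libraries (horizontal axis) and in the 3 AY libraries (vertical axis) of the 395 regions bound by both proteins, both reversed so that the highest scores are at the top right; lines are 1 SD (n = 3) for the 8 named regions of each direction, and the dotted line marks equal ranks. The 99 regions higher in every AY library (orange) lie above the line, the 115 higher in every WT library (blue) below it, and the 181 with overlapping ranks (grey) along it and in the lower left.

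The first places in the 2 orders were only partly the same. Of the 40 regions with the best mean rank in WT and the 40 with the best in AY, 12 were in both. The 40 best of WT had a median mean rank of 77.7 in AY, and the lowest placed of them 331.7. The 40 best of AY had a median mean rank of 92.8 in WT, and the lowest placed 365.7. Sites at the head of 1 protein's order thus reached the foot of the other's.

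A group of sites held a strong peak of the AY protein and a weak WT peak. The largest difference was at chr10:93265618-93266577, with ranks of 37, 30 and 26 in AY against 379 and 363 in WT replicates 1 and 3, with no peak in WT replicate 2. Its scores were 995.4, 766.4 and 465.4 in the AY lists and 64.1 and 50.1 in the WT lists, so the WT peaks stood near the lowest score of any list, 50. The mean rank was 31 ± 5.57 in AY and 366 ± 12.2 in WT (SD, n = 3, the absent peak at its shared last rank).

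The site chr5:136382405-136383474 ranked 16, 10 and 12 in AY against 286 and 330 in WT replicates 1 and 3, with no peak in WT replicate 2. The site chr7:29167752-29168658 ranked 12, 15 and 7 in AY against 265 and 251 in WT replicates 1 and 2, with no peak in WT replicate 3. The site chr17:56170054-56171001 ranked 20, 54 and 18 in AY against 355 and 309 in WT replicates 1 and 2, again with none in WT replicate 3. These 4 sites were within the first 54 of the 395 ranks in every AY library and passed the rule on 2 WT peaks.

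The other regions with the largest differences toward AY were at chr10:40156718-40157661, chr9:66725080-66726060, chr8:71475379-71476333 and chr4:53251585-53252438. Their mean ranks were 23, 58.3, 24.3 and 74.3 in AY against 332.3, 360, 320.7 and 364.5 in WT, and each lacked the peak of WT replicate 2. None of the 8 regions had a peak in all 3 WT libraries, so an absent WT peak enters each of these means. They were picked as extremes from the 99.

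The reverse group held a strong WT peak and a weak AY peak. The site chr1:163825969-163826927 had a peak in all 6 libraries and ranked 31, 23 and 7 in WT against 370, 321 and 281 in AY. Its scores were 814.6, 536.6 and 785.3 in the WT lists and 72.6, 76.7 and 56.4 in the AY lists. The mean rank was 20.3 ± 12.2 in WT and 324 ± 44.6 in AY (SD, n = 3), and the 2 groups did not overlap.

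The site chr12:33430366-33431306 also had all 6 peaks, at ranks 51, 32 and 16 in WT against 356, 352 and 287 in AY. The site chr11:75273583-75275155 ranked 18, 13 and 25 in WT against 214 and 342 in AY replicates 1 and 2, with no peak in AY replicate 3. The site chr19:59052896-59053814 ranked 48, 34 and 35 in WT against 309 and 269 in AY replicates 1 and 2, with no peak in AY replicate 3. Of the 8 most extreme sites toward WT, 2 were held by every library. The rank given to an absent peak differs between libraries, so this number is not set against the sites toward AY.

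The remaining 4 regions toward WT were at chr16:92861558-92862436, chr13:111335342-111336085, chr8:129356139-129357042 and chr18:85017678-85018858. Their mean ranks were 52, 71.7, 98 and 88.3 in WT against 324.7, 333.5, 357.8 and 341.5 in AY. AY replicate 3 lacked the peak at all of these but the region on chromosome 13, where AY replicate 2 lacked it.

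**Figure D3:**
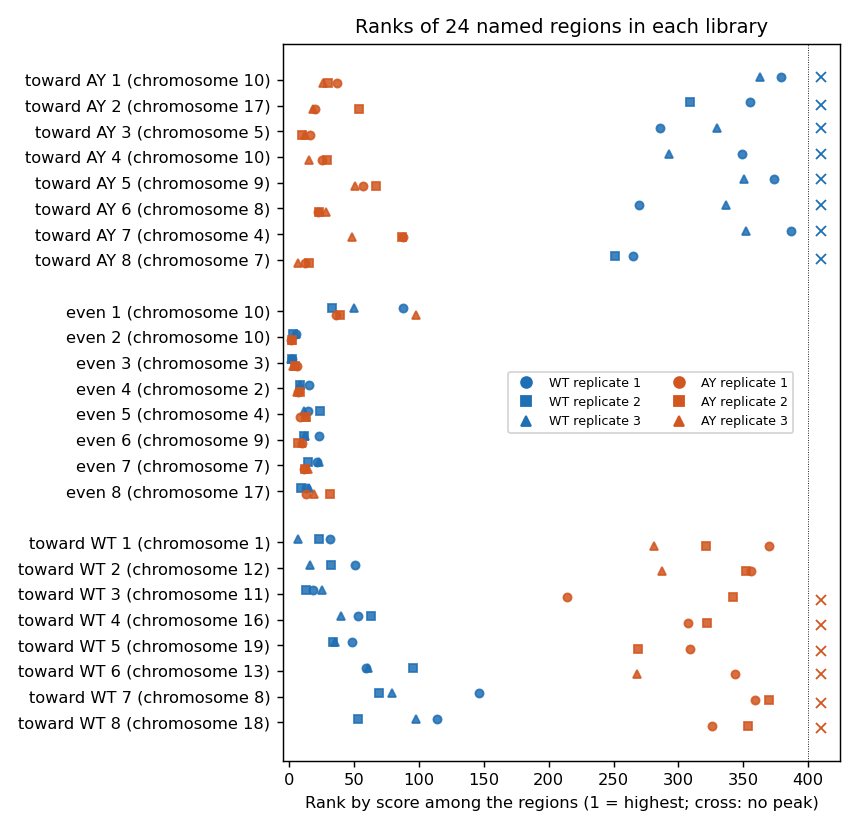
Rank by score among the regions bound by both proteins (horizontal axis, 1 = highest) in each library for the 8 regions with the largest separated differences toward AY, 8 evenly ranked regions and the 8 with the largest differences toward WT; blue is WT, orange is AY, symbols are replicates and a cross at the right edge marks a library without a peak. The regions toward AY sit at 7 to 88 in AY, those toward WT at 7 to 146 in WT, and the evenly ranked regions at 1 to 98 in every library.

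Other sites were high in both orders. Among the 42 regions in all 6 libraries with a mean rank of at most 79, the smallest difference between genotypes was at chr10:51173431-51174367, at ranks 88, 33 and 50 in WT against 36, 39 and 98 in AY. The means were 57 ± 28.2 and 57.7 ± 35, so the difference was far inside the spread of either genotype. The site chr2:151930666-151931723 ranked 15, 8 and 8 in WT against 7, 8 and 6 in AY. The site chr4:11015494-11016508 ranked 14, 24 and 11 in WT against 8, 13 and 13 in AY, and chr7:52715824-52716829 ranked 21, 14 and 23 in WT against 11, 12 and 14 in AY. At these 4 regions the ranks of the genotypes overlapped.

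Overlap and separation are not the same as a small and a large difference. The region chr10:67175526-67176537 stood at ranks 5, 3 and 5 in WT against 1, 2 and 2 in AY. These 2 groups do not overlap, yet the means differ by only 2.67 ranks. The site chr3:50241592-50242696 differed by as much the other way, at 2, 2 and 1 in WT against 6, 4 and 3 in AY. The site chr9:82873705-82874718 had ranks of 23, 11 and 12 in WT against 10, 7 and 10 in AY. The site chr17:43694436-43695446 had 13, 9 and 15 in WT against 13, 31 and 19 in AY, and its groups overlapped.

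The highest score of 4 lists lay in a shared region that 1 library lacked. The interval chr17:39979692-39986003, 6312 bp wide, held the first peak of the lists of WT replicates 1 and 2 and of AY replicates 2 and 3, and the seventh of AY replicate 1. The median shared region was 861 bp wide, and whether this peak reflects binding of Nrf2 was not tested. Its score was 2460, 1542, 2169, 3100 and 1773 in WT replicates 1 and 2 and AY replicates 1, 2 and 3. WT replicate 3 had no peak in it, and the nearest peak of that library was 1329181 bp away. The region was 1 of 5 shared regions wider than 2000 bp, and this region was chosen after its values were seen. The counts of separated regions were 96 and 116 without the 8 regions that were wider than 2000 bp, held several peaks of 1 library or lay on unplaced sequence.

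Some of the shared sites lay near another shared site. Of the 395 regions, 65 (16.5%) lay within 50 kb of another shared region, in 26 pairs, 3 groups of 3 and 1 group of 4. For regions held by at least 2 WT and no AY libraries the share was 11.6% (61 of 524), and for regions held by at least 2 AY and no WT libraries 21.1% (170 of 805), each counted within its own set; larger sets hold more neighbours, and the difference was not tested. The groups gave 35 pairs of neighbouring regions, 21 of them at most 10 kb apart. Both regions of a pair were separated toward WT in 8 pairs and toward AY in 2, and 5 pairs went opposite ways. At the other 20 pairs the ranks of at least 1 region overlapped.

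The nearest neighbours were 545 bp apart, on chromosome 3. The region at 50240046 to 50241046 ranked 6, 5 and 3 in WT against 138, 127 and 113 in AY. The region beside it, 50241592 to 50242696, was among the first 6 in every library. The same stretch thus held a site that was high in both orders and a site that was near the head of the WT order and lower in AY.

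On chromosome 11 a gap of 705 bp separated 2 regions that were both higher in WT. The region at 75272050 to 75272877 ranked 143, 116 and 94 in WT against 347, 309 and 262 in AY. Its neighbour at 75273583 to 75275155 is the region of ranks 13 to 25 in WT described above. A group of 3 on chromosome 1 was likewise higher in WT at each region. There, 45916992 to 45917785 ranked 161, 91 and 119 in WT against 319, 193 and 259.5 in AY. The next, 45929755 to 45930748, ranked 77, 136 and 65 in WT against 336 and 284 in AY replicates 1 and 2, and 45938098 to 45938940 ranked 85, 106 and 87 in WT against 297 and 240 in AY replicates 1 and 2. AY replicate 3 had no peak at these last 2 regions.

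Pairs that went opposite ways were found on chromosomes 1, 8, 10, 12 and 19. The region chr12:88670921-88671930 ranked 72, 60 and 68 in AY against 385 and 242 in WT replicates 1 and 3, with no peak in WT replicate 2. At 16883 bp from it, 88688814 to 88689713 ranked 156, 258 and 155 in AY against 66, 71 and 31 in WT. The region chr8:129387327-129388164 ranked 9, 9 and 8 in AY against 195, 127.5 and 198 in WT. It lay 30284 bp from 129356139 to 129357042, which was named above among the extremes toward WT.

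On chromosome 19, 4838 bp lay between 34589985 to 34590839, at ranks 73, 97 and 72 in WT against 122, 122 and 129 in AY, and 34595678 to 34596782, at 226, 240 and 295 in WT against 143, 126 and 156 in AY. The region chr1:193054043-193055077 ranked 52, 68 and 49 in WT against 14, 11 and 11 in AY, and 193092938 to 193094194 ranked 17, 28 and 26 in WT against 34, 43 and 40 in AY. On chromosome 10 the pair at 87294600 to 87295453 and 87304967 to 87305896, 9513 bp apart, ranked 40, 40 and 29 and then 261, 317.5 and 267 in AY. In WT it ranked 301, 291 and 315 and then 45, 31 and 38.

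Both sites of a pair moved toward AY on chromosome 13 and once on chromosome 11. The region chr13:3540559-3541414 ranked 83, 73 and 63 in AY against 367 and 193 in WT replicates 1 and 2, and 3546891 to 3547689 ranked 205, 155 and 142 in AY against 328 and 334 in WT replicates 1 and 3. The region chr11:79985069-79986034 ranked 85, 91 and 81 in AY against 94, 131 and 145 in WT. Its neighbour at 79990419 to 79991360 ranked 53, 45 and 102 in AY against 308 and 298.5 in WT replicates 1 and 2. At each of these regions given with only 2 WT ranks, the remaining WT library had no peak.

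The largest group, 4 regions on chromosome 5 between 17505461 and 17520770, had overlapping ranks at 3 of its regions. Its last region, 17519737 to 17520770, ranked 46, 78 and 62 in WT against 136, 77 and 100 in AY. The region at 17512785 to 17513582 was the only 1 of the 4 that was separated, at 121, 133 and 111 in WT against 171 and 184 in AY replicates 1 and 2, with no peak in AY replicate 3.

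**Figure D4:**
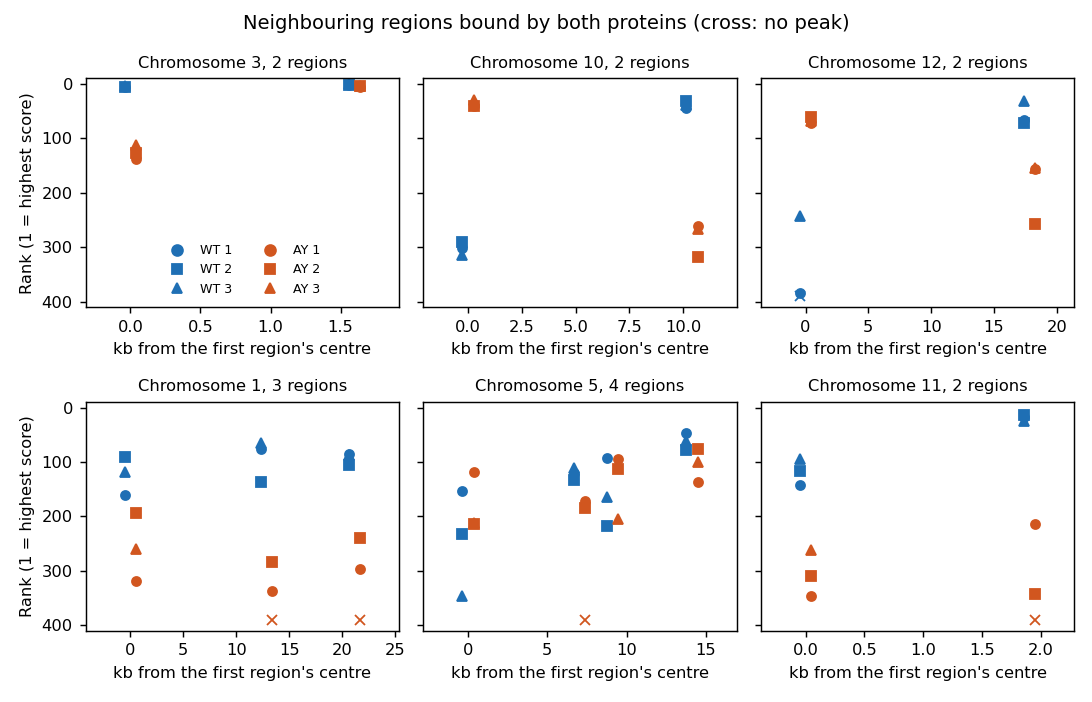
Rank by score (vertical axis, 1 = highest at the top) of neighbouring shared regions at 6 loci, placed by distance in kb from the centre of the first region of the locus (horizontal axis); blue is WT, orange is AY, symbols are replicates and a cross at the foot marks a library without a peak. The loci were chosen after their values were seen: the colours change places between neighbours on chromosomes 10 and 12, WT is above AY at each region on chromosomes 1 and 11, and on chromosome 3 both are near the top at the second region only.

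The width of peaks in shared regions did not separate the genotypes. The median width was 735, 582.5 and 617 bp in the WT libraries and 774, 676 and 581.5 bp in the AY libraries. The means were 645 ± 80 bp in WT and 677 ± 96.3 bp in AY (SD, n = 3), and their difference of 32.3 bp was below both SDs (p = 0.7 by a two-sided exact permutation test over 20 assignments of the libraries, which cannot give less than 0.1). The sign changed without WT replicate 2 (-8.17 bp), without WT replicate 3 (-0.167 bp) and without AY replicate 1 (-4.67 bp). In each library the peaks in shared regions were wider than the rest of its list, whose medians were 556, 448 and 521 bp in WT against 642, 561 and 490 bp in AY. The rule requires overlapping peaks, and wider peaks overlap more readily. This greater width is therefore a description and not a separate trait of the shared regions.

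For single regions the width moved with the rank. At the 54 regions in all 6 libraries that were higher in AY, the mean AY peak was a median of 1.28 times as wide as the mean WT peak, and at the 73 higher in WT it was 0.879 times as wide. At the 75 with overlapping ranks the ratio was 1.02. Every AY peak was wider than every WT peak at 15 regions, all of them higher in AY by rank. Every WT peak was wider at 12 regions, 10 of them higher in WT and 2 with overlapping ranks. The counts of 15 and 12 regions were not tested. With so few libraries of each genotype, such separation of widths also arises without a difference. Across the 202 regions, Spearman's rho between the log2 width ratio and the rank difference was 0.901; both are measures of the same peaks and are not independent.

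**Figure D5:**
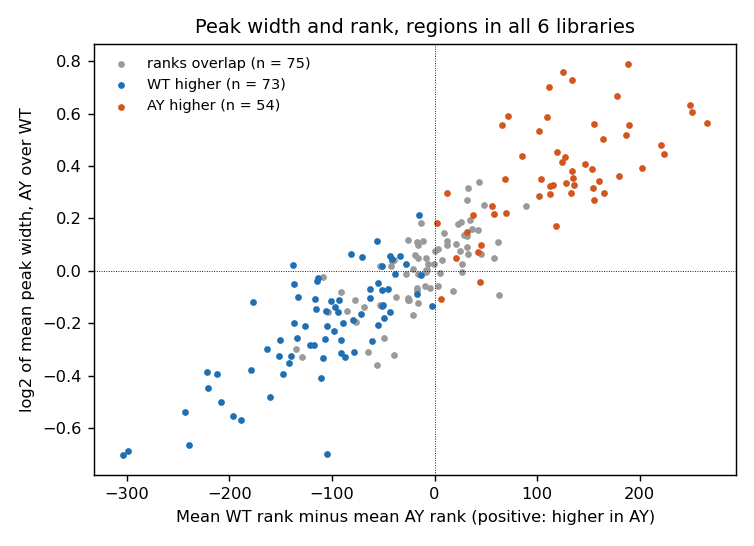
Difference of mean rank (WT minus AY, horizontal axis; positive values are higher in AY) and log2 ratio of mean peak width (AY over WT, vertical axis) for the 202 regions with a peak in all 6 libraries, each point 1 region. Regions higher in AY (orange, n = 54) lie mostly above 0, at a median width ratio of 1.28, and those higher in WT (blue, n = 73) mostly below, at 0.879.

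The centres of WT and AY peaks lay nearly as close to each other as those of libraries of 1 genotype. The peaks of a region were merged by overlap, which limits these distances. At the 202 regions, the centres of 2 libraries were a median of 31.5 to 36.5 bp apart for WT pairs, 30 to 34.5 bp for AY pairs and 34.5 to 42.3 bp for mixed pairs. The mean WT and AY centres were a median of 23.3 bp apart, and 62.4 bp or less at 90% of regions. At 32 regions (15.8%) the 3 WT centres lay wholly to 1 side of the 3 AY centres. Every region with a peak in all libraries is a shared one, so no wider set gives a background share. The count was not tested, and with 3 libraries against 3 such separation also arises without a difference. The mean centres were over 100 bp apart at 9 regions. The largest distance was 286.2 bp, at chr10:53003974-53005457.

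The shared regions had a median width of 861 bp, with 511 bp the narrowest and 7983 bp the widest, against 648 bp for the regions of WT only and 715 bp for those of AY only. A region merged from more libraries is wider by construction. Shared regions lay on all 19 autosomes, with 9 to 30 on each. They made up 6.57% (chromosome 14) to 16.4% (chromosome 19) of the regions of an autosome. On X, 5 of 182 regions (2.75%) were shared, on unplaced sequence (Un_random) 2 of 33, and none of the 73 regions on Y or its random sequence.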

How the data were processed

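Peak lists of 6 Nrf2 ChIP-seq libraries (3 WT, 3 AY) were used. The submitters' processing notes name MACS 1.4, Bowtie2 and bcl2fastq 2.15.0 and the build mm9; what each tool did, its settings, the control library and the treatment of duplicate reads are not stated there. Each library has a list of its own, so the authors called peaks per library; the deposited columns are the start and end of each peak and a score, which is the authors' value for that peak. No deposited score lies below 50 and the highest is 3100, so it was read as -10 log10 of a p-value.

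Peaks overlapping by at least 1 bp were merged (Python 3.11.15, pandas 2.3.3). A library held a region if it had a peak in it, and tied scores shared a mean rank. Widths were tested with a two-sided exact permutation test over libraries (SciPy 1.17.1). The ranking was tested on simulated lists in which each shared region had a peak in every library. The shared last rank of absent peaks was therefore not tested. The labels do not say that libraries came from separate animals, so p-values measure only the spread between libraries, which may be technical.

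Named regions followed a rule. They are the 8 separated regions with the largest difference of mean rank in each direction, the 8 most even among regions in all 6 libraries with a mean rank of at most 79, and the 4 best placed just inside and just outside the rule. Neighbouring regions were all counted, and those named were chosen after their values were seen. The members, lists and tests were chosen with earlier results of these data known. Planned comparisons of motifs and of genes near the regions were not made, because no mm9 sequence or annotation was used here.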

Additional observations from a re-analysis of the deposited data

How the results depend on the processing

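The number of shared regions, 395, was 202 with peaks of a score of at least 100, 235 with every list cut to its 826 highest scores and 202 when all 6 libraries had to hold a region; it was 393 to 399 with the numbered chromosomes and X, an overlap of 50% of the shorter peak, or peaks up to 1 kb apart merged. Without 1 library it was 279 to 373, with both libraries of the reduced genotype required. Separated regions, 99 toward AY and 115 toward WT, numbered 57 and 65 among regions in all 6 libraries, 61 and 75 with equal lists, 84 and 90 with the rank over list length, and 80 to 106 and 88 to 126 without 1 library. With rank over list length all 395 regions and all 6 libraries enter, and the cause of the lower counts was not tested; in the other settings fewer regions enter or fewer libraries have to be separated. The difference in median width was -8.17 to 77.2 bp without 1 library and 16.3 to 22.8 bp in the settings with fewer regions.

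The replicate number as a block gave 116 regions higher in AY and 139 higher in WT in every same-numbered pair, and the width difference of 32.3 bp with p = 0.5 (exact sign-flip test, which cannot give less than 0.25). The libraries were not treated as paired. Deviations of ranks from the genotype means correlated at 0.125, 0.0657 and 0.195 for numbers 1, 2 and 3 over the shared regions. WT replicate 1 correlated best with AY replicate 2, at 0.133, and the remaining pairs of unlike number at -0.225 to -0.0117. Over the 202 regions in all 6 libraries the same-numbered pairs gave 0.0105, -0.0337 and 0.0986. Whether the numbers mark a block cannot be told from these values. The setting without wide regions, regions with several peaks or unplaced sequence was chosen after seeing the data. No setting on motifs, search windows or gene distance was run. Unknown depth limits every absence of a peak, and weak shared sites may be missing from the shorter lists.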

Other observations

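Of the 5 shared regions wider than 2000 bp, 3 were held by both libraries numbered 3 and had no AY replicate 1 peak inside the merged region. On unplaced sequence (Un_random, 3395238 to 3400544), WT replicate 3 had 5 peaks and AY replicate 3 had 4, with best list ranks of 31 and 227, whereas the best list rank was 546 in WT replicate 1, 495 in WT replicate 2 and 1146 in AY replicate 2. The region chr16:3256410-3264392 held 4 peaks of WT replicate 3, 3 of AY replicate 3 and 1 each of WT replicates 1 and 2 and AY replicate 2; the nearest peak of AY replicate 1 lay 114 bp outside it. The region chr8:19905015-19907881 had a peak in replicates 2 and 3 of both genotypes and in neither replicate 1. The labels name no batch, and these regions were chosen after their values were seen.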
